A study of Rattus norvegicus with 8 samples.

Results

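Potassium channel genes were taken as every gene in the count table whose symbol begins with Kcn, which selected 91 of 17337 genes. The symbol covers the pore-forming subunits of the voltage-gated, calcium- and sodium-activated, inwardly rectifying and two-pore families, and also auxiliary subunits that form no pore of their own. Of the 91 genes, 76 passed the filter on low counts and were tested, and 15 did not.

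The data were polyadenylated RNA sequenced from the striatum of 8 rats, 4 that self-administered methamphetamine (METH) and 4 that self-administered saline. All 8 were labelled WT and, per the methods of the study, were male Sprague-Dawley rats that had learned to press a lever for food and carried a jugular catheter. METH rats could infuse 0.05 mg/kg of METH in 2 h sessions over 16 days, a press giving an infusion except during a short timeout after each, and saline rats went through the same surgery and sessions with saline alone. The rats that were kept were those whose pressing was steady over the last days, and all were killed under ketamine and xylazine, so these features were shared by both groups. The age of the rats and the time from the last session to dissection were not given in the sources used here.

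Potassium channels let potassium leave the cell and so hold the resting potential, end action potentials and set how readily a neuron fires. In the projection neurons that make up most of the striatum, inward rectifiers keep the cell silent at its negative resting level, Kv1 and Kv4 channels delay the first spike, and Kv7 channels carry the M-current that acetylcholine suppresses. Pore subunits of one family mix in tetramers, and auxiliary subunits alter how the tetramers are trafficked and gated, so the RNA of a single subunit does not give the current.

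Libraries held between 18135939 and 20832550 counted reads in the saline group and between 18520038 and 21211920 in the METH group. Values are given as counts per 1000000 counted reads (CPM), scaled by the trimmed mean of M-values (TMM), and 3 counts, the floor used for detection, corresponded to 0.142 to 0.169 CPM. Markers of striatal projection neurons were abundant in every library, with Drd1 at 450.3 to 515.1 CPM and Ppp1r1b at 6785 to 10288 CPM. Saline rat 1 stood apart in Slc17a7, a vesicular glutamate transporter of cortical neurons, which had 65.8 CPM there, 3.12 to 3.67 CPM in the other saline rats and 3.58 to 12.2 CPM in the METH rats. METH rat 3 stood apart on the first principal component of all tested genes, at 39.5 against 0.257 to 5.29 for the other METH rats. Saline rats 1 to 4 lay at -4.17, -8.78, -24.6 and -11.7, all below the METH rats, with saline rat 3 at the opposite end. For several of the genes described, the value without 1 of these or another rat is given beside the value from all 8.

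The share of counted reads that fell on potassium channel genes differed between groups by less than the spread between rats. It was 0.393% ± 0.0297 (SD, n = 4) in saline rats and 0.385% ± 0.0241 (SD, n = 4) in METH rats, with ranges of 0.370 to 0.433% and 0.366 to 0.419%. Reads were concentrated in few genes, and read totals also depend on transcript length. Kcnab1, a cytosolic beta subunit of Kv1 channels, held 14.1% of them over all rats and Kcnj4, an inward rectifier, held 7.28%. At the other end, Kcna10 had no read in any rat, and the other 14 untested genes reached at most 15 counts in any rat. These were Kcna7, Kcne1, Kcne3, Kcnh8, Kcnj1, Kcnj13, Kcnj15, Kcnk18, Kcnk6, Kcnmb1, Kcnmb2, Kcnmb3, Kcnq1 and Kcnv2, several of which are known mainly from kidney, heart, muscle or epithelium.

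A single potassium channel gene, Kcnf1, passed the test of METH against saline rats. A gene passed where its false discovery rate (FDR, the p of the edgeR quasi-likelihood test adjusted by Benjamini-Hochberg over all genes) was below 0.05 and its mean log2 CPM was above 1. That was 1 of 76 genes tested (1.32%), beside 62 of all genes tested (0.516%), of which 54 were higher (0.449%) and 8 lower (0.0666%) in METH rats. Before adjustment, 11 potassium channel genes (14.5%) had a p below 0.05, beside 11.1% of all genes. Of these, 9 were higher in METH rats (11.8%, against 6.26% of all genes) and 2 were lower (2.63%, against 4.88%). In 4 genes, Kcnf1, Kcnk1, Kcnab3 and Kcnip2, every METH rat lay above every saline rat, which was 5.26% of those tested beside 3.75% of all genes. In 0 genes did every METH rat lie below, beside 2.65% of all genes, and groups were separate in either direction in 6.39% of all genes. The log2 fold changes of the 76 genes, METH against saline, ran from -0.90 to 0.64 with a median of -0.02, where the median over all genes was -0.01, and 41 of them (53.9%) were below 0, beside 51.4% of all genes. Because whole tissue was sequenced, fewer cells of a type and less RNA per cell cannot be told apart in any of these values.

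**Figure D1:**
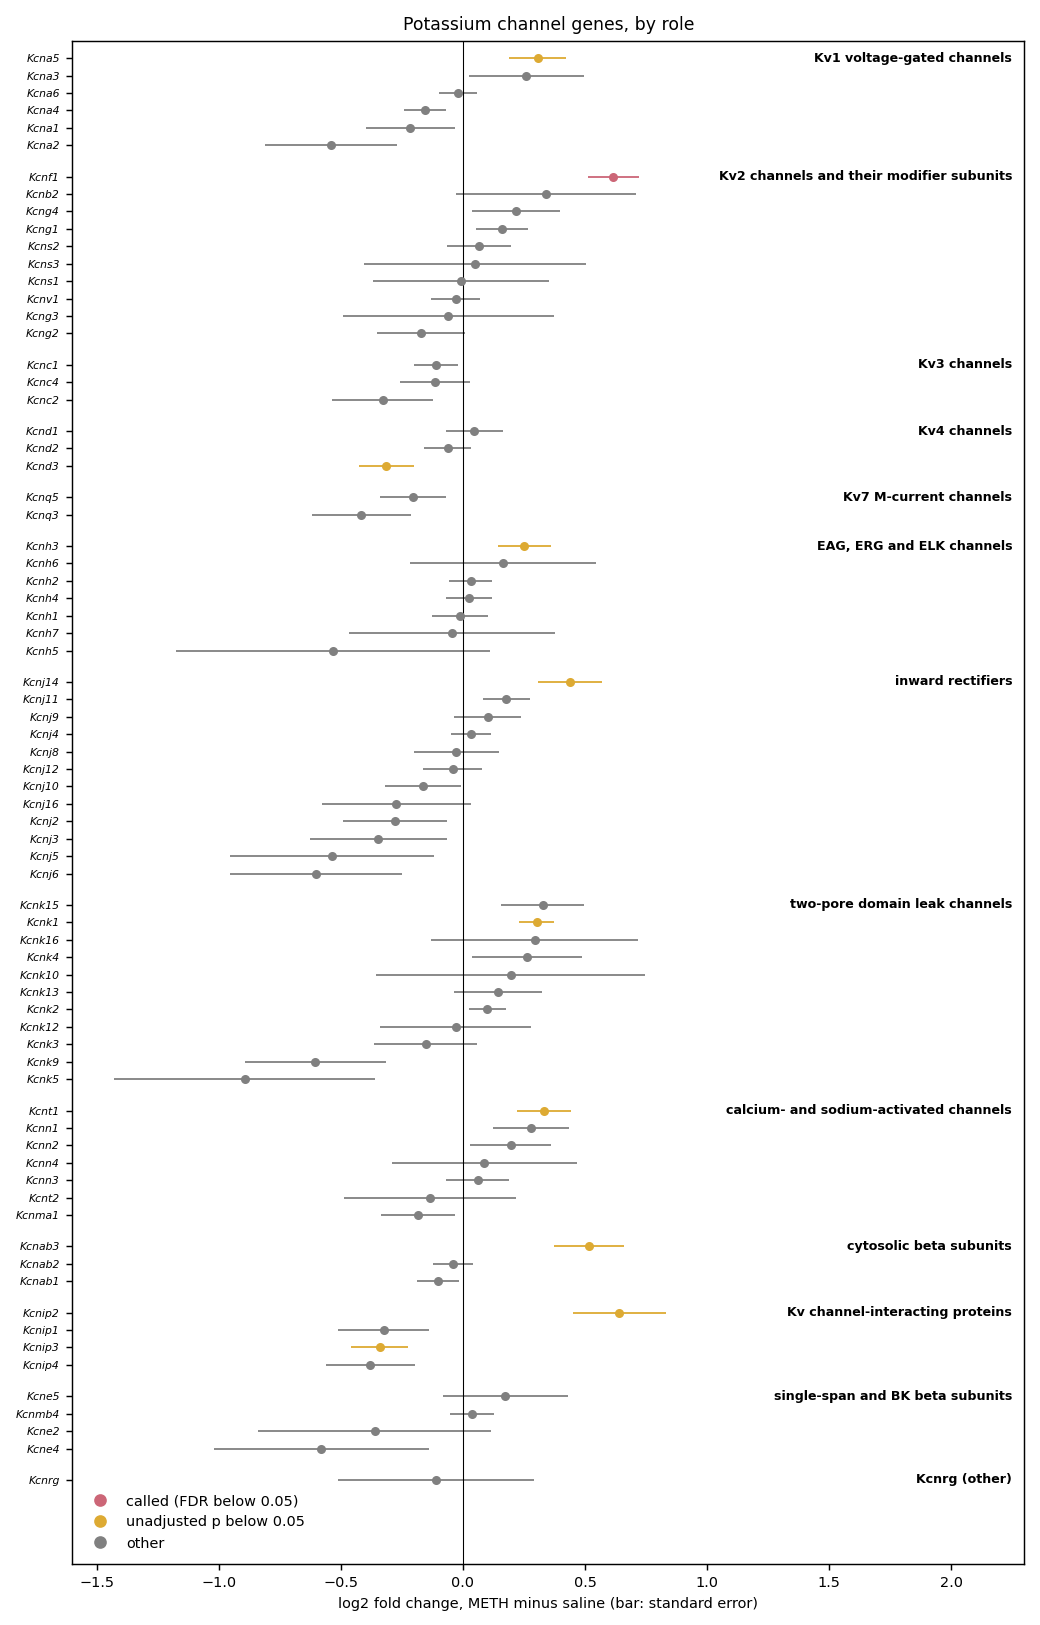
Log2 fold change (METH minus saline, x axis) of the tested potassium channel genes reported here, grouped by role, with bars for the standard error. Kcnf1 is the only gene past FDR 0.05, at 0.62, and the other genes with an unadjusted p below 0.05 are spread over the families.

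The sequences upstream of the transcription start were available from RefSeq (rat build GRCr8) for 62 of the 91 genes. Those of 3 of the 4 genes in which every METH rat lay above every saline rat are shown. Of the 3, only Kcnf1 passed the test, while Kcnab3 (FDR = 0.193) and Kcnip2 (FDR = 0.224) did not. Kcnk1 had no entry. Each line gives the 250 bases before the start, 5′ to 3′ on the strand of the gene, in coordinates of GRCr8 and not of rn6, the build to which the reads were aligned. Capitals mark the letters TGACG, the cyclic AMP response element half-site.
Kcnf1, chr6:45693707-45693956, minus strand: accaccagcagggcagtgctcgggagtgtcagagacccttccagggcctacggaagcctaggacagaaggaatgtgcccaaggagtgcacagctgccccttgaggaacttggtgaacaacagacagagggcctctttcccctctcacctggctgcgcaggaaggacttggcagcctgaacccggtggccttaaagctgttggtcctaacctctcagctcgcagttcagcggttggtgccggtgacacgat
Kcnab3, chr10:54546388-54546637, plus strand: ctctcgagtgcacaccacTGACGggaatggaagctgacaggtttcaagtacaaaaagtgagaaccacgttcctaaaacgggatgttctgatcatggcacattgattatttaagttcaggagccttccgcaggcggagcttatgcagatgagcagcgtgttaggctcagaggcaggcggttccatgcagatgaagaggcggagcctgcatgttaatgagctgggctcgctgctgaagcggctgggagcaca
Kcnip2, chr1:254613899-254614148, minus strand: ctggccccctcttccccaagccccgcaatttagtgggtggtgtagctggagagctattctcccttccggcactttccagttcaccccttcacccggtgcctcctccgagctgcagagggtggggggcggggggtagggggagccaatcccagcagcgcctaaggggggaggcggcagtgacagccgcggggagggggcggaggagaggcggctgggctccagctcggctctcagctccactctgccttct

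The half-site TGACG began 232 bases before the start of Kcnab3 and was found on either strand in 13 of the 62 promoters, beside 18.2% of 33469 promoters of this length. The full element TGACGTCA, which contains the half-site, was found in 0 of the 62 and in 1.59% of all promoters. The AP-1 letters TGANTCA were found in 2 of the 62 (3.23%, against 6.34% of all), the NR4A letters AAAGGTCA in 2 (3.23%, against 1.24%) and the EGR letters GCGNGGGCG in 4 (6.45%, against 4.29%), none of them in the 3 promoters printed. The G and C content of the 250 bases was 59.6% for Kcnf1, 52.8% for Kcnab3 and 68.0% for Kcnip2. A match of letters describes the window only.

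Kcnf1 encodes a modifier subunit that forms no working channel alone and joins Kv2 pore subunits, whose current it changes. It read 81.3, 82.5, 105.8 and 87.8 CPM in saline rats 1 to 4 and 118.5, 154.3, 128.6 and 146.8 CPM in METH rats 1 to 4. All 4 METH rats lay above all 4 saline rats, with METH rats 2 and 4 highest and saline rat 3 nearest to the METH range. The means were 89.4 ± 11.3 and 137.1 ± 16.4 CPM (SD, n = 4 each), a 1.53-fold rise (log2 fold change 0.62, SE 0.11, 95% interval 0.39 to 0.84; FDR = 0.0149). The FDR crossed 0.05 when single rats were left out: it was 0.0523 without saline rat 1, 0.0683 without saline rat 2, 0.0643 without saline rat 4 and 0.0556 without METH rat 4, while the log2 fold change stayed between 0.55 and 0.71. Without both saline rat 1 and METH rat 3 the log2 fold change was 0.60 and the FDR 0.0888.

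Among the other modifier subunits of the Kv2 family, Kcng1 read 87.3 ± 11.9 and 97.5 ± 10.4 CPM (log2 fold change 0.16, FDR = 0.584) and Kcnv1 read 64.9 ± 9.20 and 63.5 ± 3.88 CPM (SD, n = 4 each). Kcnb2, which encodes a Kv2 pore subunit, read 0.768 to 2.42 CPM in saline and 1.48 to 2.99 CPM in METH rats. Its log2 fold change was the fifth highest of all tested potassium channel genes, 0.34, with an SE of 0.37 (FDR = 0.756). The value rested on saline rat 1, the lowest of the 8, and was 0.09 without it, 0.22 without METH rat 1 and 0.51 without METH rat 4. Of the 12 genes of Kv2 channels and their modifier subunits, 11 were tested, 7 with values higher and 4 lower in METH rats, and 1 passed.

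Leak channels of the two-pore family hold the resting potential. Kcnk1, which encodes the weakly conducting leak channel TWIK1, read 61.0, 55.9, 61.8 and 58.7 CPM in saline rats 1 to 4 and 75.1, 71.6, 72.5 and 73.4 CPM in METH rats 1 to 4. The groups did not overlap and the rats within each were close together, at 59.4 ± 2.65 and 73.2 ± 1.49 CPM (SD, n = 4 each). The difference was 1.23-fold (log2 fold change 0.30, SE 0.07) and did not pass over all genes, with an FDR of 0.114. It did pass by the edgeR likelihood ratio test (FDR 0.0289) and by DESeq2 (FDR 0.00762). Those tests called 170 and 191 of all genes, against 62 by quasi-likelihood. By quasi-likelihood the FDR of Kcnk1 was 0.184 without saline rat 1 and 0.178 without METH rat 3. It was 0.150 to 0.285 over all single rats left out, and at most 0.355 over every setting tried.

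Of the 13 two-pore genes 11 were tested, with 7 values higher and 4 lower in METH rats and a median log2 fold change of 0.14. Kcnk2, a leak channel opened by stretch and lipids, had the most reads, at 190.7 ± 8.42 and 204.3 ± 16.1 CPM (SD, n = 4 each; log2 fold change 0.10, FDR = 0.639). Kcnk5 and Kcnk9, acid-sensitive leak channels, had the lowest log2 fold changes of all 76 genes. For Kcnk5 it was -0.90 with an SE of 0.53 (FDR = 0.537), from 0.850 to 1.28 CPM in saline and 0.190 to 1.19 CPM in METH rats. It was -1.51 without METH rat 3 and -0.60 without METH rat 2. Kcnk9 read 2.80 to 6.18 CPM in saline and 2.20 to 3.95 CPM in METH rats (log2 fold change -0.61, SE 0.29, FDR = 0.458), and its log2 fold change was -0.37 without saline rat 3 and -0.82 without METH rat 2. Both pairs of groups overlapped.

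Auxiliary subunits held 3 of the 11 genes with an unadjusted p below 0.05. These were 1 of 3 cytosolic beta subunits tested and, of 4 Kv channel-interacting proteins tested, 1 higher and 1 lower in METH rats. The 4 single-span and BK beta subunits tested held 0. The share was 14.5% over all tested potassium channel genes and 11.1% over all genes. The cytosolic beta subunits bind the inner face of Kv1 channels, where some of them speed inactivation. Kcnab3 read 6.59, 8.50, 7.73 and 7.89 CPM in saline rats 1 to 4 and 11.8, 11.1, 10.1 and 10.9 CPM in METH rats 1 to 4. All METH rats were above all saline rats, at means of 7.68 ± 0.799 and 11.0 ± 0.736 CPM (SD, n = 4 each; log2 fold change 0.52, SE 0.14, FDR = 0.193). By DESeq2, which called 191 of all genes against 62 by quasi-likelihood, its FDR was 0.0485. By quasi-likelihood it was 0.237 to 0.329 with 1 rat left out, and 0.491 with the rat number as a block. The other beta subunits gave log2 fold changes of -0.10 for Kcnab1, with 564.3 ± 59.1 and 526.0 ± 39.6 CPM, and -0.04 for Kcnab2, with 160.0 ± 7.95 and 155.4 ± 14.6 CPM (SD, n = 4 each). Reads on Kcnab3 per read on Kcnab1 were 0.0123 to 0.0167 in saline and 0.0195 to 0.0216 in METH rats, without overlap. Ratios of reads depend on the lengths of both transcripts, so they compare rats and not genes. They are given as a description without a test. The pairs were chosen after the values of their genes were seen, so the ratios restate those values and are no separate result.

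Kv channel-interacting proteins are calcium-binding proteins that carry Kv4 channels to the membrane and shape their inactivation. Their 4 genes lay on opposite sides: Kcnip2 was the highest of the 76 log2 fold changes, and Kcnip1, Kcnip3 and Kcnip4 were all below 0. Kcnip2 read 6.70, 4.70, 5.65 and 4.77 CPM in saline rats 1 to 4 and 7.24, 9.71, 9.83 and 7.22 CPM in METH rats 1 to 4. The groups did not overlap, but saline rat 1 came within a small margin of METH rats 1 and 4 (log2 fold change 0.64, SE 0.19, FDR = 0.224).

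Kcnip3, whose product also acts in the nucleus as a calcium-regulated repressor of transcription, read 19.2, 24.3, 24.6 and 24.0 CPM in saline rats 1 to 4 and 20.1, 16.3, 18.9 and 17.4 CPM in METH rats 1 to 4. Saline rat 1 fell within the METH range and the other saline rats lay above it (log2 fold change -0.34, SE 0.12, FDR = 0.298). Without saline rat 1 the log2 fold change was -0.42 and the FDR 0.199. For Kcnip1 the means were 15.2 ± 2.42 and 12.2 ± 3.14 CPM (log2 fold change -0.33, FDR = 0.520), and for Kcnip4 they were 18.8 ± 2.53 and 14.4 ± 3.94 CPM (log2 fold change -0.38, FDR = 0.463; SD, n = 4 each). Kcnip4 was lowest in METH rat 3, at 9.15 CPM, and its log2 fold change was -0.22 without that rat, while that of Kcnip1 was -0.17 without METH rat 2.

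Within each rat, reads on Kcnip2 per read on Kcnip3 were 0.349, 0.193, 0.229 and 0.199 in saline rats 1 to 4 and 0.360, 0.595, 0.519 and 0.415 in METH rats 1 to 4. The lowest METH rat exceeded the highest saline rat narrowly, and the means were 0.243 ± 0.0724 and 0.472 ± 0.105 (SD, n = 4 each). The ratio of 1.95 between groups restates the higher Kcnip2 and lower Kcnip3 values in METH rats, for which the pair was chosen.

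**Figure D2:**
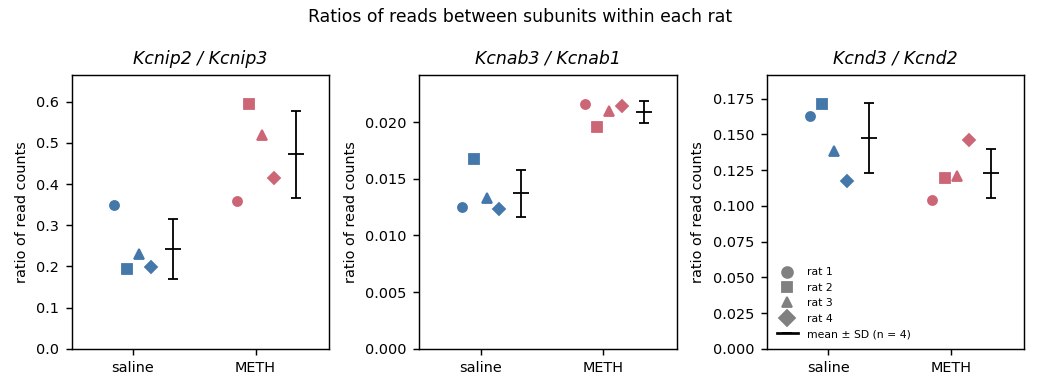
Ratio of read counts between pairs of subunits within each rat (y axis, from 0), for saline and METH rats, with a point for each rat and the mean ± SD of 4 rats. Kcnab3 per Kcnab1 was 0.0123 to 0.0167 in saline and 0.0195 to 0.0216 in METH rats, and Kcnd3 per Kcnd2 is the only pair whose groups overlap.

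The Kv4 pore subunits that these proteins bind carry the A-type current. Kcnd3 read 29.9, 30.7, 30.7 and 26.1 CPM in saline rats 1 to 4 and 21.5, 25.0, 20.4 and 27.5 CPM in METH rats 1 to 4. METH rat 4 lay within the saline range and the other METH rats below it (log2 fold change -0.31, SE 0.11, FDR = 0.324). Kcnd2, the Kv4 subunit with the most reads, was at 201.5 ± 23.3 and 193.0 ± 18.6 CPM (log2 fold change -0.06), and Kcnd1 at 30.5 ± 2.56 and 31.5 ± 4.60 CPM (log2 fold change 0.05; SD, n = 4 each). Reads on Kcnd3 per read on Kcnd2 were 0.118 to 0.171 in saline and 0.104 to 0.146 in METH rats.

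Kv7 subunits form the M-current channels, which open near threshold and restrain repeated firing. Kcnq3 read 48.8, 55.0, 93.8 and 80.9 CPM in saline rats 1 to 4 and 44.0, 66.9, 39.6 and 58.4 CPM in METH rats 1 to 4 (log2 fold change -0.42, SE 0.20, FDR = 0.463). The highest value was that of saline rat 3, METH rats 2 and 4 lay within the saline range, and METH rats 1 and 3 lay below every saline rat. Kcnq5 read 132.0 to 204.9 CPM in saline and 120.8 to 171.1 CPM in METH rats (log2 fold change -0.20, SE 0.13, FDR = 0.574). Without saline rat 3 the log2 fold changes were -0.24 for Kcnq3 and -0.09 for Kcnq5.

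Saline rat 3 was the highest of the 8 rats in 26 of the 76 tested potassium channel genes (34.2%), beside 18.2% of all tested genes. METH rat 3 was highest in 19 (25.0%) and lowest in 19 (25.0%), beside 23.1 and 22.3% of all genes. Saline rat 3 also had the largest share of reads on potassium channel genes, 0.433%. The bearing of this rat on the lower METH means of Kcnq3 and Kcnq5 was not tested beyond leaving it out.

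**Figure D3:**
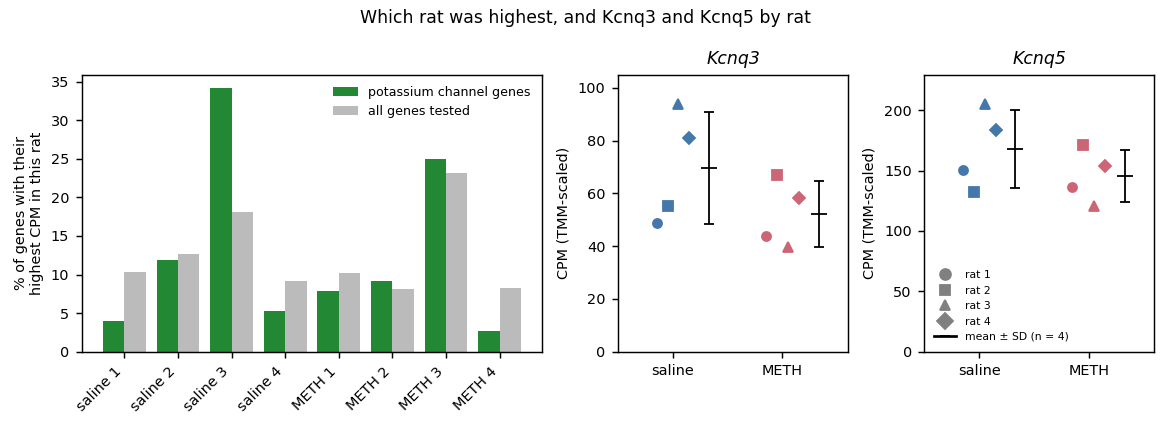
Left, percentage of genes (y axis, from 0) whose highest CPM of the 8 rats was in the rat named on the x axis, for the 76 potassium channel genes (green) and for all tested genes (grey). Right, CPM of Kcnq3 and Kcnq5 in each rat with the mean ± SD of 4 rats, where saline rat 3 is the highest in both, at 93.8 CPM for Kcnq3.

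Kv1 channels open at low voltages and line axons and dendrites. Kcna5 read 40.5, 33.7, 42.8 and 29.1 CPM in saline rats 1 to 4 and 42.0, 45.4, 46.1 and 47.1 CPM in METH rats 1 to 4. METH rat 1 alone fell within the saline range, and the saline rats were more scattered than the METH rats (log2 fold change 0.31, SE 0.12, FDR = 0.356). Kcna2, a main axonal subunit, was at 11.3 ± 3.48 and 7.73 ± 2.79 CPM (SD, n = 4 each; log2 fold change -0.54, SE 0.27, FDR = 0.469), with overlapping groups and its lowest value, 4.57 CPM, in METH rat 3, without which the log2 fold change was -0.36. Kcna6 had the most reads of the family and a log2 fold change of -0.02. Of 8 Kv1 genes 6 were tested, 2 with values higher and 4 lower in METH rats.

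Kcnh3 belongs to the EAG, ERG and ELK family of slowly gating channels. It read 174.7, 168.9, 155.9 and 160.9 CPM in saline rats 1 to 4 and 157.5, 211.8, 235.5 and 180.8 CPM in METH rats 1 to 4 (log2 fold change 0.25, SE 0.11, FDR = 0.423). METH rat 1 lay within the saline range and METH rat 3 was the highest. Of 8 genes of this family 7 were tested, and the other 6 had no unadjusted p below 0.05.

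The sodium- and calcium-activated channels set the pause after a spike or burst. Kcnt1, a sodium-activated channel, read 138.6, 125.2, 150.6 and 141.9 CPM in saline rats 1 to 4 and 146.5, 182.0, 214.3 and 157.9 CPM in METH rats 1 to 4 (log2 fold change 0.33, SE 0.11, FDR = 0.283). METH rat 1 fell below saline rat 3 and the other METH rats lay above the saline range. Kcnma1, the pore subunit of the large-conductance (BK) channel, was at 49.2 ± 13.0 and 43.3 ± 4.79 CPM (log2 fold change -0.18, FDR = 0.664), and its neuronal partner Kcnmb4 at 57.5 ± 6.29 and 59.0 ± 3.04 CPM (log2 fold change 0.04; SD, n = 4 each). The small-conductance genes Kcnn1, Kcnn2 and Kcnn3 had log2 fold changes of 0.28, 0.19 and 0.06, with FDRs of 0.509, 0.676 and 0.889.

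Inward rectifiers hold projection neurons near the potassium potential, and some are opened by G proteins or closed by ATP. Kcnj14 read 17.0, 22.8, 19.7 and 20.8 CPM in saline rats 1 to 4 and 21.8, 26.9, 32.7 and 27.6 CPM in METH rats 1 to 4. METH rat 1 lay below saline rat 2 and the other METH rats above the saline range (log2 fold change 0.44, SE 0.13, FDR = 0.236). Kcnj4 had the most reads of the family, at 280.5 ± 12.05 and 287.2 ± 30.9 CPM (SD, n = 4 each), and its log2 fold change of 0.03 turned to -0.03 without METH rat 3 and to -0.0045 when libraries were scaled by total counts alone.

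Among the G protein-gated rectifiers, Kcnj3, Kcnj5, Kcnj6 and Kcnj9, the log2 fold changes were -0.35, -0.54, -0.60 and 0.10, with FDRs of 0.659, 0.642, 0.530 and 0.808. Kcnj6, the lowest of them, read 2.98 to 7.15 CPM in saline and 1.75 to 5.11 CPM in METH rats, and its log2 fold change was -0.32 without saline rat 3 and -0.96 without METH rat 4. The ATP-sensitive pore genes Kcnj8 and Kcnj11 had log2 fold changes of -0.03 (FDR = 0.971) and 0.18 (FDR = 0.501). Of 15 inward rectifiers 12 were tested, 4 with values higher and 8 lower in METH rats.

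METH rat 3 had the highest value in Kcnj14, Kcnt1, Kcnh3 and Kcnip2. Without it the log2 fold changes were 0.34 for Kcnj14, 0.22 for Kcnt1, 0.15 for Kcnh3 and 0.57 for Kcnip2, and Kcnh3 no longer had an unadjusted p below 0.05. In all, 10 potassium channel genes (13.2%, beside 7.52% of all genes) had an unadjusted p below 0.05 without METH rat 3, 16 (21.1%, beside 11.5%) without saline rat 1 and 11 (14.5%, beside 8.32%) without both. The 16 were 10 higher and 6 lower in METH rats, and the 11 were 6 higher and 5 lower.

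**Figure D4:**
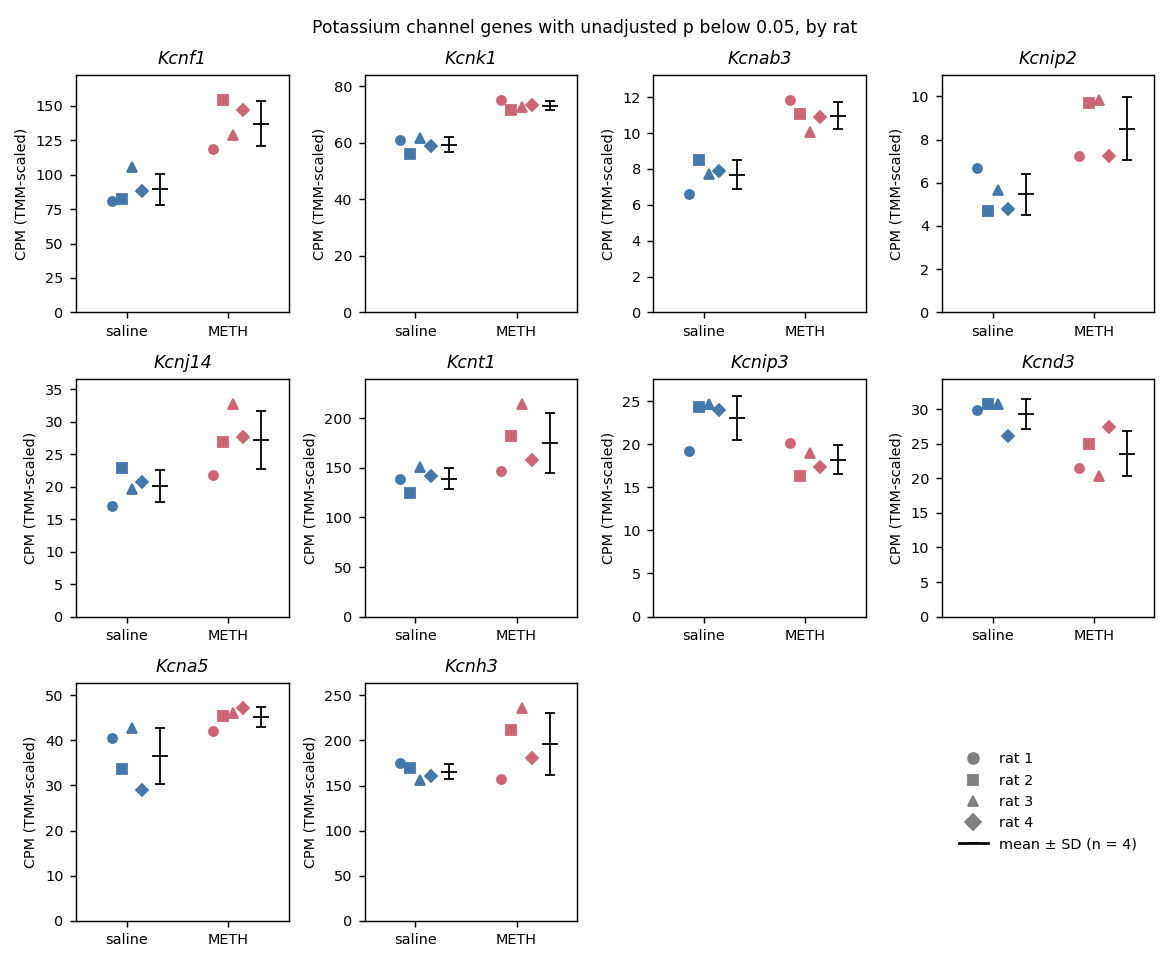
CPM (TMM-scaled, y axis from 0) in each rat for potassium channel genes with an unadjusted p below 0.05, with the mean ± SD of 4 rats. Groups are separate for Kcnf1, Kcnk1, Kcnab3 and Kcnip2 (for Kcnf1, 81.3 to 105.8 in saline and 118.5 to 154.3 in METH rats), and overlap in the others shown.

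The single-span subunits of the Kcne genes and the beta subunits of BK channels were mostly near the floor, with 4 of 9 genes tested. Kcne4, which inhibits several Kv channels, had a log2 fold change of -0.58 (SE 0.44, FDR = 0.634) on 0.800 to 1.35 CPM in saline and 0.316 to 1.13 CPM in METH rats, and it was -0.86 without METH rat 3 and -0.34 without METH rat 4. Kcnrg, a soluble inhibitor of Kv assembly, was at 0.986 ± 0.128 and 0.909 ± 0.326 CPM (SD, n = 4 each; log2 fold change -0.11). Neither passed the test.

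Genes outside the Kcn symbol that assemble with or anchor potassium channels were also examined. Of 21 listed, 18 were matched by symbol and 17 tested, none passed at FDR 0.05 by the edgeR quasi-likelihood test, and the unadjusted p was below 0.05 in 2 of the 17 with lower and 0 with higher METH means, with a median log2 fold change of -0.05. Over all genes the unadjusted p was below 0.05 in 11.1%, with 4.88% lower and 6.26% higher in METH rats. Abcc9, the sulfonylurea receptor that pairs with Kcnj8 in pericytes and smooth muscle, read 18.2, 26.0, 18.5 and 24.1 CPM in saline rats 1 to 4 and 18.7, 15.4, 12.3 and 16.4 CPM in METH rats 1 to 4 (log2 fold change -0.47, SE 0.15, FDR = 0.286). METH rat 1 alone fell within the saline range. Kctd8, which binds GABA-B receptors that open G protein-gated rectifiers, read 30.9 to 47.5 CPM in saline and 31.6 to 35.3 CPM in METH rats (log2 fold change -0.27, SE 0.12, FDR = 0.433). Dpp6, the Kv4 partner with the most reads of the pair listed, had a log2 fold change of -0.07 (95% interval -0.32 to 0.17).

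Markers of the cell types of the striatum were set beside these values. The summed level of 10 projection neuron markers was 14820 to 15666 CPM in saline and 15701 to 19678 CPM in METH rats. The sums were narrowly separate, with METH rat 3 the highest. Ppp1r1b alone averaged 7169 CPM in saline and 8499 CPM in METH rats. Each of the 10 markers taken singly overlapped between groups. Of them 7 were higher, and 3 (Drd2, Ppp1r1b and Pdyn) had an unadjusted p below 0.05, with FDRs of 0.421, 0.328 and 0.369. The other 3, Drd1, Adora2a and Bcl11b, had log2 fold changes of -0.03, -0.01 and -0.02. Interneuron markers summed to 364.0 to 421.0 and 346.3 to 411.6 CPM, and astrocyte markers to 3423 to 4102 and 3425 to 4305 CPM. Oligodendrocyte markers summed to 13515 to 19373 and 12692 to 18852 CPM, and those of their precursors to 392.0 to 508.2 and 382.9 to 581.5 CPM. Of 8 oligodendrocyte markers 6 were lower and 2 higher, and in Opalin every METH rat lay below every saline rat (log2 fold change -0.52, FDR = 0.0632). Bcas1 made up most of the precursor sum (0.23, FDR = 0.571). Pdgfra (-0.32, FDR = 0.193) and Gpr17 (-0.47, FDR = 0.265) were lower with an unadjusted p below 0.05, and Cspg4 was at -0.08. Microglial markers summed to 344.2 to 404.8 and 308.9 to 374.6 CPM, with 6 of 8 lower in METH rats and 1 of them past FDR 0.05. All 5 endothelial markers tested were lower in METH rats, at 379.8 to 550.9 and 383.9 to 408.3 CPM in sum, and pericyte and smooth muscle markers, which include Abcc9, summed to 157.1 to 231.8 and 154.8 to 192.5 CPM. Within that sum the smooth muscle genes Acta2 (log2 fold change 0.56, FDR = 0.224) and Myh11 (0.40, FDR = 0.283) had higher METH means, and Abcc9 and the pericyte receptor Pdgfrb (-0.28, FDR = 0.356) had lower ones, all 4 with an unadjusted p below 0.05. Markers of cortical and other glutamatergic neurons summed to 76.0 CPM in saline rat 1 and to 3.40 to 4.39 CPM in the other saline rats, against 3.80 to 13.5 CPM in METH rats. Choroid plexus markers summed to 4.94 to 6.28 and 5.85 to 9.54 CPM, with 1 of 7, Otx2, at 0 in every rat. The part of cell composition in the potassium channel values was not tested.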

How the data were processed

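Total RNA was extracted with TRIzol and poly(A) RNA was made into libraries with a TruSeq v2 kit, which does not mark strand, so a gene and an antisense partner cannot be told apart. The authors removed adapters (cutadapt 1.18), mapped the reads to the rat build rn6 (STAR 2.7.0e), counted them per gene (featureCounts, Subread 1.6.4) and deposited raw counts with 1 column per rat. The annotation, strand setting and treatment of multimapping reads are not given in the sources used here, so genes that share sequence or overlap are uncertain. Columns were matched to rats by group and number, and 0 columns were left out.

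Computed here, in R 4.3.3: genes were filtered with filterByExpr (minimum count 10), scaled by TMM and compared over all genes that passed, by the quasi-likelihood F-test in edgeR 4.0.16, 4 METH against 4 saline rats, two-sided, with Benjamini-Hochberg adjustment. A call needed an FDR below 0.05 and a mean log2 CPM above 1. The methods of the study name no test for the mRNA. A prior count of 2 was used for the log2 CPM of single rats (principal component, deviations from group means, outlier quotients). Log2 fold changes came from the fit at its default settings. Depth was 18135939 to 21211920 counts. The detection floor covers counting error only, and intervals of log2 fold changes, taken from the fit, include the spread between rats. Alternatives used RLE, upper-quartile and total-count scaling, other filters, the likelihood ratio test, a robust fit, limma 3.58.1 (voom), DESeq2 1.42.0, the rat number as a block, and each rat left out. The comparison without both saline rat 1 and METH rat 3 was chosen after seeing the data. Scripts were tested on simulated data.

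Genes were named by rule: those called or with an unadjusted p below 0.05, the 5 highest and 5 lowest log2 fold changes, and the gene with the most reads in each role. Other genes and the read ratios were chosen after their values were seen, and the members, roles and marker lists were chosen with earlier results of these data known. Some genes that the rule names are not reported here.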

Additional observations from a re-analysis of the deposited data

Results flagged for a closer look

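Groups of 4 rats were examined for outliers, genes on log2 CPM with a prior count of 2 and library measures as they stand. The quotients given for genes therefore do not follow from the plain CPM printed beside them. In 70 such groups, 5 held a rat whose distance to its nearest neighbour, divided by the spread from lowest to highest, exceeded Dixon's critical value, where chance alone gives about 5% of groups. Of these 5, 3 were potassium channel genes, out of 58 groups examined for such genes, all in saline rat 1. The quotient was 0.895 for Kcnb2, at 0.768 CPM against 2.15 to 2.42 CPM in the other saline rats. For Kcnip3 it was 0.896, at 19.2 CPM against 24.0 to 24.6 CPM. Kcnk2 gave 0.888, at 203.3 CPM against 185.3 to 187.2 CPM. The cortical marker Slc17a7 in saline rat 1 gave 0.948, at 65.8 CPM against 3.12 to 3.67 CPM. On the first principal component, METH rat 3 gave 0.872, at 39.5 against 0.257 to 5.29.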

How the results depend on the processing

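With 4 rats a group, 1 rat could decide a call. The number of potassium channel genes called was 1 with the other scalings, filters and fits of all 8 rats, 2 with the likelihood ratio test (Kcnf1 and Kcnk1), 3 with DESeq2 (Kcnf1, Kcnk1 and Kcnab3), beside 170 and 191 of all genes with these tests and 62 by quasi-likelihood, and 0 without both saline rat 1 and METH rat 3. With the rat number as a block it was 0, where Kcnf1 kept 0.62 (log2) but had an FDR of 0.0704. Rats of the 2 groups share only a number: their deviations from the group means correlated at 0.01, -0.19, -0.20 and 0.04 for rats 1 to 4, so the block was not taken as a pairing. Leaving out 1 rat gave 0 to 1 genes, 9 to 16 genes at an unadjusted p below 0.05 (11.8 to 21.1%, beside 7.52 to 13% of all genes), 6 to 12 genes without overlap (7.89 to 15.8%, beside 8.32 to 13.4% of all genes; 12 without METH rat 1, 11 without both rats, fewer rats giving less overlap by construction) and a median log2 fold change of -0.08 to 0.02. Across alternatives the FDR of Kcnf1 ran from 1.57e-05 to 0.0888. The sign turned in Kcnj4 (-0.0045 with total counts, -0.0419 without both rats, -0.0320 to 0.0780 with 1 rat left out), in Kcna6 (-0.0628 to 0.0201) and in Kcnrg (-0.27 to 0.10). Of 574 values for 29 genes, 560 kept their direction and side of the threshold, 6 lost the call, 3 gained it and 5 turned in sign; the cause was not tested. Total-count scaling moved the median of all genes to -0.04.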
